A study of Mus musculus with 6 samples.

Results

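The chromatin of 9 genes that regulate or mark blood stem and progenitor cells (Myb, Meis1, Gata2, Flt3, Kit, Cd34, Tal1, Lmo2 and Hlf) was described in mouse blood monocytes. They are 9 of 21887 protein-coding genes in the annotation, of which 16831 had a peak nearby in at least 1 library. For each gene, peaks of open chromatin were taken from a window reaching from 10 kb before to 10 kb after the gene body, and their number, width and fold enrichment were set side by side by library. The genes were chosen by name with the number, width and fold of their peaks in these same libraries already known. The contrast between the groups is therefore given as values without a test. With 3 libraries against 3, an exact permutation test could not give a p under 0.1.

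The DTR group holds 3 libraries of monocytes from thrombocytopenic PF4cre-iDTR mice treated with diphtheria toxin, and the WT group 3 libraries of monocytes from wild-type control mice that were given the toxin as well. In the PF4cre-iDTR genotype, Cre recombinase driven by the promoter of the platelet factor gene Pf4 switches on a receptor for the toxin, so that megakaryocytes and with them platelets are lost. Activity of Pf4-driven Cre in some other blood cells has been described in mice. The labels give no age, sex or strain and do not say whether a library stands for 1 animal or a pool, so the spread between libraries may be technical. Libraries were made by ATAC-seq from aliquots of 50000 cells with the Tn5 transposase, which cuts and tags accessible DNA.

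Blood stem and progenitor cells are held in their state by a small network of transcription factors. Gata2, Tal1 and Lmo2 act in shared complexes on DNA, with Lmo2 as a bridge that binds no DNA itself, Meis1 works as a partner of Hox proteins, and Myb sustains progenitor growth. Kit and Flt3 are receptor tyrosine kinases for stem cell factor and Flt3 ligand, and Cd34 is a surface sialomucin used to sort progenitors. Expression of most of these genes declines as cells mature into monocytes. A peak of open chromatin marks accessible DNA and is no measure of transcription.

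The 5 sequences below are the 250 bases upstream of annotated starts, printed because they show the contrast among the 3 genes with more than 1 listed start. The first Gata2 start lay in open chromatin in all 6 libraries and the second in 3 of them. Neither upstream window of Tal1 held a peak in any library, and that of Kit was touched by a peak in all. Sequences are from RefSeq, build GRCm38.p6, 5′ to 3′ in the direction of the gene, and capitals mark matches to AGATAA or AGGAAG on either strand, which both Gata2 windows and the second of Tal1 lack.
Gata2, first start (chr6:88193641-88193890, plus strand): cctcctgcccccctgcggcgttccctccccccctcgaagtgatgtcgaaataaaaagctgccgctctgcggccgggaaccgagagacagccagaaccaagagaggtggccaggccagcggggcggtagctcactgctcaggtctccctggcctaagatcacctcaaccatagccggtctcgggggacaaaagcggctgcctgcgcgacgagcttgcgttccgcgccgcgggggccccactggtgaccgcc
Gata2, second start (chr6:88198414-88198663, plus strand): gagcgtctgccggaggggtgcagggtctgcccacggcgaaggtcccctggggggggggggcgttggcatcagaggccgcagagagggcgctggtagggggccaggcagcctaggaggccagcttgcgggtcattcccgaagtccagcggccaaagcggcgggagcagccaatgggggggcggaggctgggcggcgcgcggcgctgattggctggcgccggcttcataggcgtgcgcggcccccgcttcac
Tal1, first start (chr4:115056176-115056425, plus strand): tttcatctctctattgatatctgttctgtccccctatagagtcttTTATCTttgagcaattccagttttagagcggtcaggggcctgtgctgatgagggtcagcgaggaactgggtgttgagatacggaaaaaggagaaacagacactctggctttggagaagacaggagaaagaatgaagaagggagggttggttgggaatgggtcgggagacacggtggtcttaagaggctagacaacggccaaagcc
Tal1, second start (chr4:115057561-115057810, plus strand): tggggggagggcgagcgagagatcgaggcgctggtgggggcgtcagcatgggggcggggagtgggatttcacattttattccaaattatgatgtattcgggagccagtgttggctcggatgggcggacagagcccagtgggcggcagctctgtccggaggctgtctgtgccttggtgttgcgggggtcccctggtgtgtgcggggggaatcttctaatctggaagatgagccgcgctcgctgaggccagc
Kit (chr5:75574737-75574986, plus strand): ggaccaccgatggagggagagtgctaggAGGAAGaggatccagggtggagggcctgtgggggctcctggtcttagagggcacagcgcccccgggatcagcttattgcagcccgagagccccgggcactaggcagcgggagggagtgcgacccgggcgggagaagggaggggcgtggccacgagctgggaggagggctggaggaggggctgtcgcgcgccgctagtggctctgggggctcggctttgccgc
The table held 11 starts for 8 of the 9 genes, and none for Lmo2. In these upstream windows AGATAA (the core bound by GATA factors) was found at 1 of the 11 starts, the first of Tal1, against 8.81% of all 21263 promoters of protein-coding genes. AGGAAG (an ETS core) was found at both Kit starts, whose windows are offset by 4 bases, and at Cd34, against 28.5% of all promoters. CAGCTG (an E-box) was found at 0 starts, against 12.1% of all. TGTGGT (a RUNX core) stood at Meis1 alone, against 12.4%. AACNG (the MYB core) stood at 6 of the 11 starts, against 73.1%, and TTNCNNAA (a C/EBP pattern) at 3, against 34.0%. Both strands were searched, and a match is a description of letters and not a binding site. CpG dinucleotides were densest upstream of Myb, at 0.975 of the number expected from base composition, and of Hlf, at 0.934, against a median of 0.53 over all promoters.

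Among the libraries, lists ran from 81567 to 84029 peaks in DTR and from 77867 to 80475 in WT, and peaks covered 48.1 to 50.1 Mb in DTR and 43.8 to 47.7 Mb in WT. Every DTR list was thus longer than every WT list, and since read counts were not used here, sequencing depth and group cannot be told apart. The lists of marker genes were also chosen with earlier results of these data known. Of marker genes with an annotated start, all 11 monocyte genes had a peak at the start in all 6 libraries. The number was 4 of 10 for neutrophils, 2 of 10 for B, T and NK cells, 1 of 9 for mast cells and basophils, 1 of 7 for erythroid cells and 1 of 7 for megakaryocytes and platelets. Fewer cells of a type and less open chromatin per cell cannot be told apart in such bulk samples.

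Starts of the 9 genes were mostly open in these monocytes. Of the 8 genes with an annotated start, 7 had a peak there in all 6 libraries, namely Myb, Meis1, Gata2, Flt3, Kit, Cd34 and Hlf. Over all protein-coding genes with a start the share was 55.8%. At Tal1 the nearest region, at 115056544 to 115057524 on chromosome 4, lay between the annotated starts, 118 bp from the nearer one, and had a peak in every library. The windows of Myb, Kit and Hlf held no other annotated gene, while that of Flt3 reached the protein-coding gene Urad and the other 5 held noncoding or predicted genes, so a region there may belong to a neighbour.

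The share of the window covered by peaks differed widely among the genes. Windows ran from 33142 bp at Gata2 to 159224 bp at Meis1, and in covered length Meis1 came first. Peaks covered 13.2% of the Tal1 window on average over the 6 libraries (range 11.6% to 15.2%) and 12.8% of the Myb window (11.5% to 14.6%). These are the 93.2 and 92.5 percentiles among all genes with a peak, whose median was 5.19%. Lmo2 had 8.41% (7.45% to 9.06%) and Flt3 8.08% (7.18% to 8.88%). Meis1 followed with 6.68% (5.30% to 7.55%) and Gata2 with 6.40% (5.56% to 7.62%). Cd34 had 4.06% (3.68% to 4.34%), Kit 1.78% (1.70% to 1.96%) and Hlf 1.16% (0.999% to 1.58%). In this order the ranges of Tal1 and Myb overlapped, as did those of Lmo2 and Flt3, of Flt3 and Meis1, and of Meis1 and Gata2. The ranges of Myb and Lmo2, of Gata2 and Cd34, of Cd34 and Kit, and of Kit and Hlf did not. Kit and Hlf thus lay low among all genes, at the 15.6 and 10.1 percentiles.

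**Figure D1:**
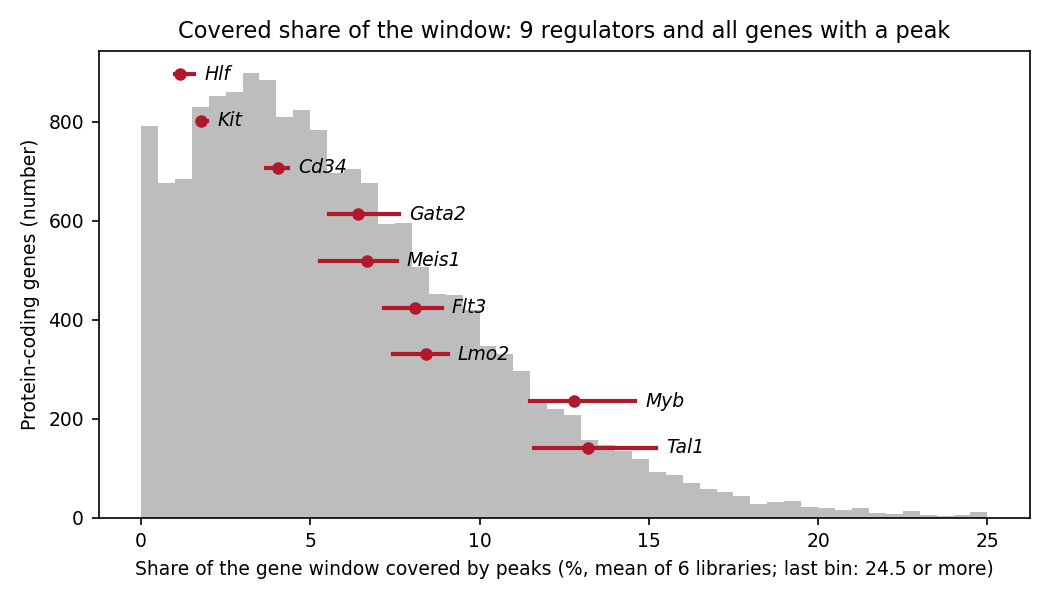
Share of the gene window covered by peaks, in percent (x axis), for the 9 regulators (red, mean and range over 6 libraries) above the distribution over all protein-coding genes with a peak (grey bars, number of genes on the y axis). Tal1 (13.2%) and Myb (12.8%) lie in the right tail, and Kit (1.78%) and Hlf (1.16%) near the left edge.

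Merging the 6 lists gave 69 regions in the 9 windows, and 49 of them (71.0%) had a peak in every library. The share was 75.2% over the windows of all protein-coding genes and 74.1% over the genome. A further 9 regions had peaks in some libraries of both groups, 7 in DTR libraries alone and 4 in WT libraries alone. The 7 comprise 5 regions of a single library, 1 Lmo2 region of 2 libraries and 1 Myb region of all 3, and each of the 4 on the WT side had a peak in 1 library. Regions missing from at least 1 library were narrow and weak, with a median width of 190 bp and a median fold of 2.77, against 743 bp and 5.0 for regions of all libraries. The same contrast, 219 bp and 3.02 against 686 bp and 5.78, was found over the windows of all genes. Of these 20 regions, 12, 8 and 7 had a peak in DTR libraries 1, 2 and 3, and 7, 5 and 7 in WT libraries 1, 2 and 3.

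**Figure D2:**
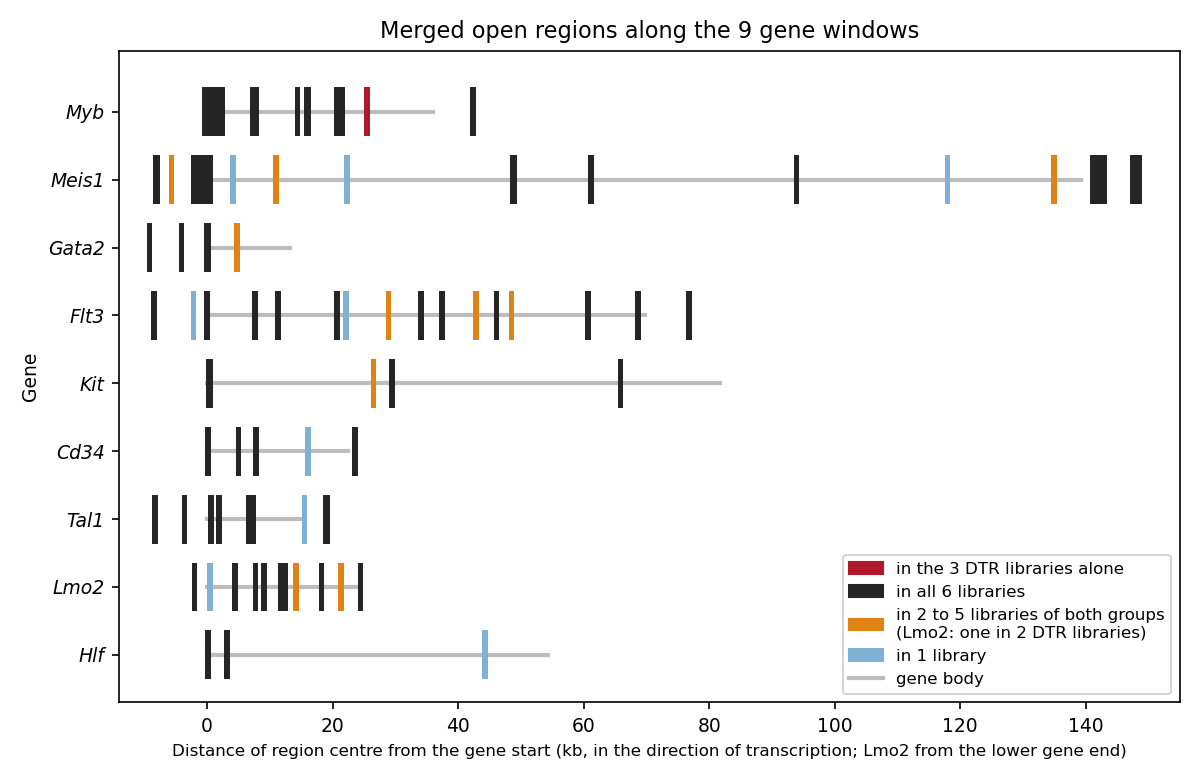
Merged regions along the 9 windows, by distance of the region's centre from the annotated start in kb (x axis; for Lmo2 from the lower gene end), 1 row per gene. Bars under 0.9 kb are drawn at 0.9 kb, and colours give the libraries with a peak. The 49 regions of all libraries lie at starts, in introns or exons and in the flanks, and the red bar marks the single region of the 3 DTR libraries, in Myb.

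Across the 9 windows together, DTR libraries had slightly more and wider peaks than WT libraries. The windows held 62, 60 and 58 peaks in DTR libraries and 57, 56 and 57 in WT libraries, so the groups did not overlap. The means were 60 ± 2.0 in DTR and 56.7 ± 0.577 in WT (SD, n = 3 each), a ratio of 1.06, beside 1.05 for the whole lists. The covered length was 43772, 41582 and 40938 bp in DTR libraries and 38732, 35308 and 39347 bp in WT libraries, a ratio of 1.11, beside 1.08 for the whole lists. As a share of each library's covered length, the windows took 0.0874%, 0.0864% and 0.0817% in DTR and 0.0813%, 0.0805% and 0.0847% in WT, and here the groups overlapped. With all lists cut to an equal 77867 peaks, a cut that removes more peaks from the DTR lists, the difference in peaks turned to -3.33, and with numbers scaled to the list total it was 0.744, against 3.33 as deposited. The median width of the peaks was 529, 570 and 565 bp in DTR and 494, 486.5 and 511 bp in WT libraries, so the groups did not overlap. Over the whole lists the median widths overlapped, at 482, 477 and 497 bp in DTR and 496, 453 and 472 bp in WT. With lists of equal length the difference in the windows was 54.8 bp, against 57.5 bp as deposited. It was 77.5 bp with a −log10 q of at least 5. With gene bodies alone it was 26.5 bp, with 50 kb flanks 34.8 bp and with peaks of at least 200 bp 39.0 bp. How often other gene sets of this size are apart in median width was not tested. The median fold was 4.76, 4.45 and 4.76 in DTR and 4.53, 4.66 and 4.93 in WT, with overlapping groups and a difference of -0.0521.

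By gene, the mean covered length was higher in DTR than in WT for all 9 genes, with a median ratio of 1.13, where all genes had a median of 1.05 and 82.2% lay above 1. Scaled to each list's total, which shifts the median of all genes by -0.10 on the log2 scale, 6 of the 9 were above 1, with a median of 1.05, and Flt3, Kit and Cd34 were below, where all genes had a median of 0.978 and 38.7% lay above 1. The mean was also lower in DTR with lists of equal length at Gata2 (-4.33 bp) and Kit (-85.3 bp), with peaks of at least 200 bp at Kit (-93.7 bp), and with gene bodies alone at Cd34 (-76.0 bp). With a −log10 q of at least 5 the difference at Kit was 655 bp, against 62.3 bp as deposited, so its size and sign hung on the setting. Every DTR library lay above every WT library in covered length at 2 of the 9 genes, Myb and Tal1, and below at 0. Over all genes with a peak this held for 19.3% (DTR above) and 0.850% (DTR below), so 2 of 9 is near the background. In the number of peaks 1 of the 9 genes, Myb, had DTR above WT in every library and 0 had DTR below, against 2.99% and 0.345% of all genes. With numbers of peaks divided by the list total, 1 gene (Myb) had DTR above and 1 (Cd34) DTR below, against 2.78% and 47.7% of all genes, a count in which the division breaks ties between equal numbers. With covered length scaled in this way, Tal1 alone was left in covered length, where 5.07% of all genes had DTR above and 14.7% had DTR below.

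**Figure D3:**
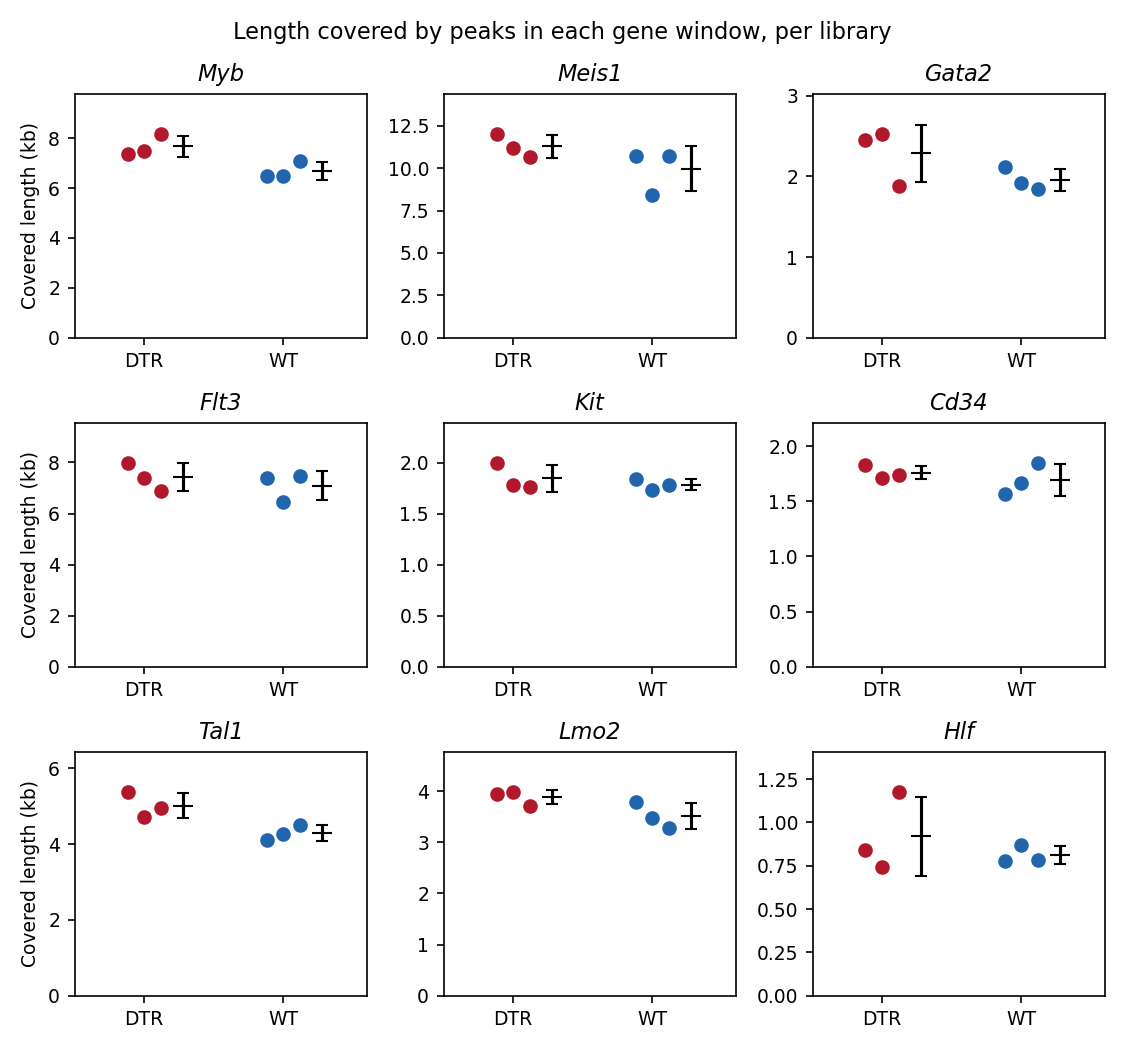
Length covered by peaks in each gene's window (y axis, kb, from 0) in the 3 DTR libraries (red) and the 3 WT libraries (blue), with the mean and SD in black. The groups are apart for Myb and Tal1 and overlap for the other genes.

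Myb, a transcription factor gene of cycling progenitors, had the groups apart in both the number of peaks and the covered length. It held 8, 9 and 8 peaks in DTR libraries and 6, 7 and 7 in WT libraries. Its covered length was 7350, 7495 and 8159 bp in DTR and 6474, 6499 and 7104 bp in WT, with means of 7668 ± 431 and 6692 ± 357 bp (SD, n = 3 each) and a ratio of 1.15. The lowest DTR library thus lay above the highest WT library in both, and scaling the covered length to the list total brought the groups into overlap. The difference in peaks, 1.67, was 0.667 with a −log10 q of at least 5, 0.333 with peaks of at least 200 bp and 0.0 with lists of equal length, and the groups overlapped in each. With lists of equal length the groups also overlapped in covered length, with a difference of 114 bp, against 976 bp as deposited. Of its 7 regions 6 were present in all libraries, and without the other region, described below, the groups would overlap in the number of peaks. The rest of the spread in number came from peaks split within a region. The region at the start held 2 peaks in each DTR library and 1, 2 and 2 in WT libraries. The region centred 7.58 kb after the start held 1, 2 and 1 in DTR and 1 in each WT library.

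The remaining Myb region had a peak in the 3 DTR libraries and in 0 WT libraries. It lies inside the gene at 21135413 to 21135585 on chromosome 10, centred 25.5 kb after the start. The authors' folds there were 2.83, 3.08 and 2.68, with widths of 173, 141 and 153 bp and −log10 q-values of 3.11, 3.84 and 2.68. These folds lay between the 7.61 and 12.9 percentiles of their lists, so the peaks were among the weaker ones called. All 3 peaks lie below a −log10 q of 5 and below 200 bp, so either cut removes the region by construction. With lists of equal length the region no longer had a peak in every DTR library. Regions of this kind made up 0.709% of the 68283 regions in windows of all genes, and those of WT libraries alone 0.0967%, beside 0.820% and 0.0992% over the genome. The 9 windows held 1 of 69 and 0 of 69.

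The strongest Myb region, at 21144492 to 21145493 and 16.0 kb after the start, had folds of 6.59, 6.50 and 6.56 in DTR and 5.95, 6.11 and 6.29 in WT. Folds there were thus a little higher in each DTR library. A neighbouring region at 21139018 to 21140705 showed the reverse in fold and a wider peak in DTR. It had folds of 5.09, 5.35 and 5.16 over 1684, 1677 and 1676 bp in DTR, against 6.41, 5.59 and 5.70 over 411, 1077 and 1665 bp in WT libraries. The region at the Myb start was the widest of all 69, at 3560 bp, and peaks covered 2914, 2845 and 2820 bp of it in DTR and 3360, 2935 and 2928 bp in WT.

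Tal1, a basic helix-loop-helix factor gene of stem and erythroid cells, held 7, 6 and 6 peaks in DTR and 6 in each WT library. Its covered length was 5369, 4718 and 4955 bp in DTR and 4101, 4259 and 4503 bp in WT, with means of 5014 ± 329 and 4288 ± 203 bp (SD, n = 3 each) and a ratio of 1.17. The lowest DTR library lay above the highest WT library. In the gene body alone the difference was 270 bp, against 726 bp with the flanks, and the groups overlapped. The region whose near edge lies 7.86 kb upstream, at 115047711 to 115048566, was covered over 737, 715 and 718 bp in DTR and 573, 455 and 493 bp in WT libraries. The lengths were larger in every DTR library, while its folds ran the other way, at 6.39, 6.73 and 7.16 in DTR and 7.22, 8.97 and 8.94 in WT libraries. The intragenic region at 115062580 to 115064181 was also wider in DTR, at 1566, 1442 and 1521 bp against 1403, 1162 and 1394 bp in WT. A stem cell enhancer of Tal1 is known downstream of the gene in mice. A region 3.14 kb after the gene, at 115074893 to 115075984, had a peak in all libraries with folds of 6.49, 5.93 and 5.48 in DTR and 5.84, 4.45 and 5.53 in WT, and whether it is that element was not tested.

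Gata2 encodes a zinc finger factor that stem cells need, and Lmo2 its bridging partner. The Gata2 window held 4, 4 and 3 peaks in DTR and 4, 3 and 3 in WT, covering 2448, 2524 and 1884 bp in DTR and 2112, 1917 and 1843 bp in WT libraries. The region at its first start, at 88193463 to 88194558 on chromosome 6, had folds of 4.56, 4.31 and 4.73 in DTR and 4.39, 3.83 and 4.42 in WT libraries. The region at its second start, 88198280 to 88199021, whose upstream bases are printed above, had a peak in DTR libraries 1 and 2 and in WT library 1, with folds of 2.72, 2.83 and 2.38. Presence at the second start thus varied within both groups. Its strongest region lay 3.88 kb upstream of the gene, at 88189563 to 88190011, with folds of 5.87, 7.06 and 6.64 in DTR and 5.23, 5.63 and 5.90 in WT. A weaker one 8.93 kb upstream had 3.18, 3.35 and 3.22 in DTR and 3.04, 2.71 and 2.69 in WT, a small gap without overlap. No library had a peak in the gene beyond the second start region.

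Lmo2 held 9, 9 and 8 peaks in DTR and 9, 8 and 7 in WT, covering 3957, 3983 and 3721 bp in DTR and 3784, 3476 and 3278 bp in WT. It had 1.89 peaks per 10 kb, the 94.1 percentile among all genes with a peak. Its strongest region, 0.316 kb beyond the upper end of the gene at 103982194 to 103982541 on chromosome 2, had folds of 9.37, 7.82 and 9.87 in DTR and 9.53, 8.32 and 7.07 in WT libraries. The groups overlapped in these values. A region at 103979064 to 103979315 had a peak in DTR libraries 1 and 2 alone, with folds of 2.88 and 2.83.

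Meis1, a homeobox gene active in stem cells, had the longest gene body and 13 regions, 7 of them in all libraries. Its peaks numbered 10, 10 and 11 in DTR and 10 in each WT library, and covered 12014, 11227 and 10659 bp in DTR and 10708, 8444 and 10755 bp in WT libraries. The groups overlapped, and the difference of the means, 1331 bp, was 568 bp without WT library 2, the lowest. The region 93.9 kb into the gene, at 18924711 to 18925382 on chromosome 11, had the highest median fold of the 69 regions. It had 11.62, 11.52 and 10.77 in DTR and 10.65, 10.67 and 11.17 in WT, at or above the 95.4 percentile of every list. The region at the start had folds of 3.62, 3.77 and 3.56 in DTR and 3.61, 3.52 and 3.95 in WT.

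Hlf, a PAR bZIP factor gene expressed in stem cells, had the least open chromatin of the 9. It held 2, 2 and 3 peaks in DTR and 2 in each WT library, covering 840, 743 and 1174 bp in DTR and 776, 872 and 784 bp in WT libraries. The region at its start, at 90390366 to 90391122 on chromosome 11, had folds of 7.82, 8.94 and 6.38 in DTR and 7.67, 7.30 and 7.91 in WT. A weaker region 3.16 kb into the gene, at 90387600 to 90387923, had folds of 2.91, 2.73 and 3.39 in DTR and 3.0, 2.76 and 2.72 in WT libraries. The third region, 44.3 kb into the gene, was a peak of 156 bp in DTR library 3 alone. The difference of the mean covered lengths, 108 bp, was -19.2 bp without that library.

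Flt3, the receptor gene of dendritic and multipotent progenitors, was the most densely marked of the receptors, with 16 regions. Its peaks numbered 14, 12 and 12 in DTR and 12, 13 and 14 in WT, and covered 7971, 7404 and 6881 bp in DTR and 7377, 6444 and 7453 bp in WT libraries. The groups overlapped. The region at the start, at 147399962 to 147401063 on chromosome 5, had folds of 7.45, 6.91 and 8.33 in DTR and 6.90, 7.90 and 8.27 in WT libraries. The strongest, 68.7 kb into the gene at 147331497 to 147332007, had 8.05, 8.94 and 7.57 in DTR and 8.47, 8.57 and 13.14 in WT libraries. The value of WT library 3 belonged to a peak of 185 bp, where the other libraries had 413 to 492 bp.

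Kit, the stem cell factor receptor gene, held 4, 4 and 3 peaks in DTR and 4, 3 and 3 in WT, covering 1995, 1777 and 1765 bp in DTR and 1837, 1731 and 1782 bp in WT libraries. The peak at its start was weak, with folds of 3.66, 3.45 and 3.56 in DTR and 3.35, 2.94 and 3.02 in WT, so every DTR library lay above every WT library. Its strongest region, 29.5 kb into the gene at 75604211 to 75604719 on chromosome 5, had folds of 8.95, 8.27 and 10.82 in DTR and 9.33, 7.72 and 8.02 in WT. A narrow region 26.5 kb into the gene had a peak in DTR libraries 1 and 2 and in WT library 1, the same libraries as at the second Gata2 start.

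Cd34 held 4 peaks in each DTR library and 4, 4 and 5 in WT, covering 1828, 1711 and 1740 bp in DTR and 1563, 1666 and 1845 bp in WT libraries. The region at its start, at 194938533 to 194939386 on chromosome 1, had folds of 5.53, 6.11 and 5.82 in DTR and 5.22, 5.91 and 5.90 in WT. Its strongest region lay 0.825 kb after the gene, at 194962117 to 194962662, with folds of 7.62, 9.0 and 8.45 in DTR and 10.65, 7.68 and 9.99 in WT libraries. The groups overlapped in each of these values.

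Among the 49 regions of all libraries, the authors' fold was higher in every DTR than in every WT library at 4 and lower at 4. Over all 68712 such regions in the genome the shares were 10.4% and 5.15%. In covered length 7 regions were larger in every DTR library and 2 smaller, against 13.0% and 1.87% of all. At 4 regions, 1 in Myb, 2 in Flt3 and 1 in Tal1, the groups were apart in both measures, and in each the measures went opposite ways. Over the genome this held for 56.4% of the 2783 regions apart in both.

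**Figure D4:**
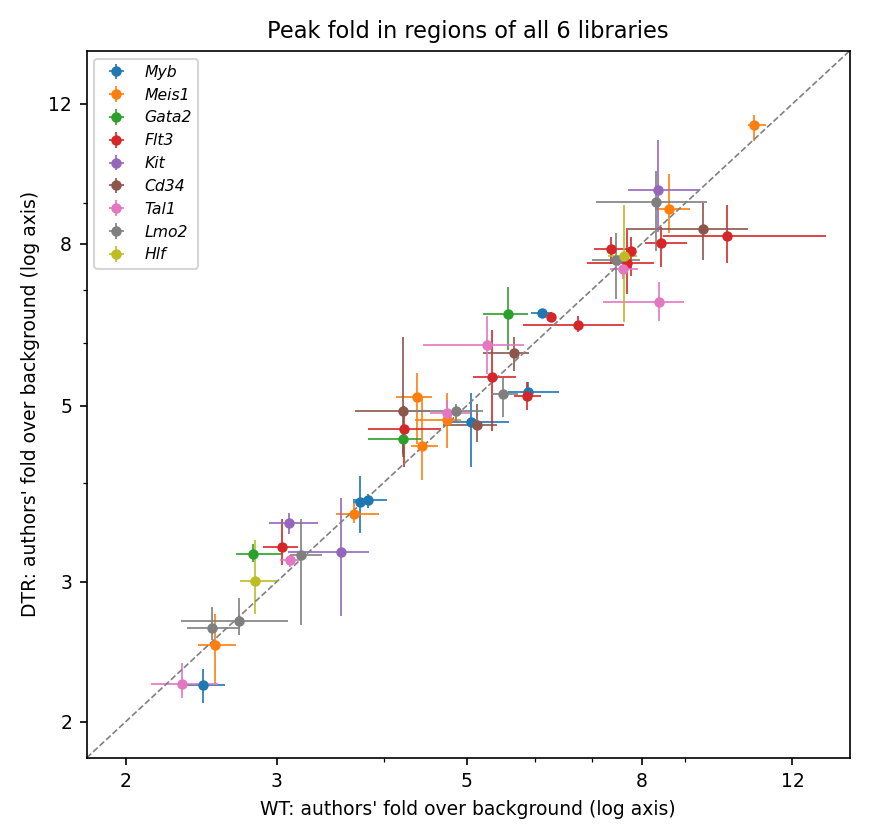
The authors' fold over background in the 49 regions present in all libraries, mean of the DTR libraries (y axis) against mean of the WT libraries (x axis), both on log axes, with bars for the lowest and highest library. Points lie along the dashed line of equal folds, with 4 regions wholly above in DTR and 4 wholly below.

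Other stem and progenitor genes, from a list of 40 that includes relatives and partners of the 9, were counted in the same way. This list too was chosen with earlier results of these data known, so its counts are given without a test. Of the 38 with a peak, 4 had more peaks in every DTR library (among them Erg, Hoxa10 and Gata1) and 0 had fewer, beside 2.99% and 0.345% of all genes. In covered length 9 were higher in every DTR library (among them Runx1, Erg, Ikzf1, Bcl11a, Sox4, Esam, Spi1 and Gata1) and 0 lower, a share near the 19.3% of all genes, beside 0.850% lower. Scaled to each list's total, 4 were higher and 1 lower in covered length, beside 5.07% and 14.7% of all genes. The median ratio of covered length over this list was 1.08 before scaling. Erg, an ETS factor gene, had 22, 25 and 22 peaks in DTR and 20, 19 and 20 in WT. Gata1, which is also among the erythroid markers below, had 2, 1 and 1 peaks in DTR and none in WT. These peaks covered only 401, 147 and 216 bp, and the mean over the 6 libraries was 0.34% of the window. No library had a peak at its annotated start. Stricter thresholds and lists of equal length were not tested for Gata1.

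By the sum of absolute differences in peaks per library, the patterns nearest to the median of the 9 (7, 6 and 6 peaks in DTR and 6 in each WT library) were those of Gata3 and Hoxa9, each with a sum of 2, and Hoxa10, with a sum of 3. Of 5 genes for ligands and niche factors (Kitl, Flt3l, Thpo, Angpt1 and Cxcl12), 4 had a peak, and in 0 of them were the groups apart in number or covered length. Kitl, which encodes the ligand of Kit, had no peak in its window in any library.

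Peaks at markers of other blood cells are set beside the Myb and Gata1 values. Summed over 10 neutrophil genes, peaks numbered 40 to 42 in DTR and 39 in each WT library. Over the whole lists the ratio of DTR to WT peaks was 1.05. Every DTR library had more peaks at S100a9 and Retnlg and fewer at Elane, beside 2.99% and 0.345% of all genes. For 9 erythroid genes the sums were 15 to 17 in DTR and 14 to 15 in WT, with Hbb-bs and Alas2 at 0 throughout. Gata1 is itself on that list, and without it the sums were 14 to 15 in DTR and 14 to 15 in WT. For 10 mast cell and basophil genes, cells that use Kit and Gata2, they were 20 to 23 in DTR and 20 to 24 in WT, with Cpa3, Fcer1a and Mrgprb2 at 0. For 10 megakaryocyte and platelet genes they were 47 to 50 in DTR and 45 to 52 in WT, and for 12 B, T and NK cell genes 27 to 28 in DTR and 27 to 29 in WT, with Cd8a and Ncr1 at 0. For 15 monocyte genes they were 101 to 106 in DTR and 101 to 107 in WT libraries. In covered length every DTR library was higher at Fcgr1 and Nr4a1 of the monocyte list, Itga2b and Gp6 of the megakaryocyte and platelet list, Mcpt8 of the mast cell and basophil list, and S100a9 and Retnlg of the neutrophil list, and lower at Ms4a2, a mast cell and basophil gene. Over all genes with a peak, 19.3% were higher and 0.850% lower in every DTR library, so such genes were common outside these lists. The part of other cell types in the Myb and Gata1 differences was not tested.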

How the data were processed

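The 6 lists of broad ATAC-seq peaks, 1 per library, were used as deposited. The deposited values of a peak are a score, a fold enrichment (a ratio to the caller's local background) and −log10 p-values and q-values. All are the authors' own. The submitters' processing notes name MACS2, fastp, Bowtie and Bowtie2 2.4.4. No source used here gives their parameters, a transposase shift or the genome build. Groups and replicate numbers came from the sample titles. The members and gene lists were chosen with earlier results of these data known.

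Gene bodies and promoters came from RefSeq tables of GRCm38.p6. Their fit to the lists was checked: 53.8% of 21263 promoters had a peak in all libraries, against 4.15% after a shift of 5000 bp. Distances from starts rest on this fit. All 9 gene symbols matched. A window is the gene body extended by 10 kb, a peak counts when it overlaps it, and covered length is trimmed to it. Touching peaks were merged into regions over the 6 lists. A region's fold in a library is its highest peak's. Percentiles are within a list or over genes. All genes of the 9, their strongest, group-only and start regions, and the other stem and progenitor genes whose groups did not overlap were named, except 1 that is not reported here.

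The lists carry no read depth. A missing peak may mean too few reads, and no interval that needs counts is given. Planned changes of threshold, list length, window, overlap, width, scaling, merging and libraries are given at the end. Counting was tested on simulated lists. At most 1.13% of peaks had identical coordinates in any pair of libraries. Python 3.11.15, numpy 2.4.6 and pandas 2.3.3 were used.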

Additional observations from a re-analysis of the deposited data

How the results depend on the processing

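As deposited, the main differences between DTR and WT were 3.33 peaks, 4302 bp covered, 57.5 bp of median width and -0.0521 of median fold. The planned changes gave 390 alternative values. Among them are the differences of means with the replicate block below, which equal the main values by construction and are counted as stayed. For the 9 genes together, 106 stayed near the main value (for differences, within the SD between libraries), 31 moved and 1 reversed. Of the values for single genes, 221 stayed and 31 moved. A difference was labelled reversed only where the groups did not overlap as deposited. Other changes of sign are therefore counted among those that stayed or moved. Examples are the median fold with lists of equal length (0.284) and the covered length at Flt3 scaled to the list total (-190 bp). With a −log10 q of at least 5, the difference in peaks was 1.67 and in width 77.5, with 0 genes apart in peaks and 0 DTR-only regions. At that threshold 3 genes (Myb, Meis1 and Tal1) were higher in covered length in every DTR library. With lists of equal length, peaks reversed to -3.33, covered length was 1399 and median fold 0.284. Then 0 genes had more and 1 (Meis1) fewer peaks in every DTR library, 1 (Tal1) was higher in covered length, and DTR-only regions numbered 0 and WT-only 3. That cut removes more peaks from the longer DTR lists. With gene bodies alone the width difference was 26.5 and 1 gene (Myb) was higher in covered length. With 50 kb flanks, peaks differed by 7.67, covered length by 8527 and width by 34.8, with 2 genes higher in peaks, 5 in covered length and 2 DTR-only regions. Peaks of at least 200 bp gave a width difference of 39.0, 0 genes higher in peaks and 0 DTR-only regions. Scaled to list totals, peaks differed by 0.744 and covered length by 1425, with 1 gene (Cd34) lower in peaks, a tie broken by the scaling, and 1 (Tal1) higher in covered length. With 2 of 3 libraries sufficing there were 2 DTR-only regions. Leaving out 1 library gave median fold differences of -0.141 to 0.0605, 2 to 5 genes higher in covered length (5 without DTR library 3, namely Myb, Meis1, Gata2, Tal1 and Lmo2), 1 to 2 DTR-only (2 without DTR library 3, in Myb and Lmo2) and 0 to 1 WT-only regions (1 without DTR library 1, in Flt3). Covered length was lower in DTR at Kit without DTR library 1 (-12.3 bp) and at Hlf without DTR library 3. Where no cause is given, the cause was not tested.

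Libraries of the same number did not deviate together (correlations of -0.0407, 0.104 and -0.0132 over genes, which are not replicates, against -0.0935 to 0.105 for different numbers). With a replicate block, 4 of the 9 genes were higher in covered length in every pair, against 2 without it and 37.3% of all genes with it, and the differences of means were equal by construction.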
